A study of Mus musculus with 12 samples.

Results

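The report concerns 10 of the 54838 gene rows of a mouse liver RNA-seq table. They are the insulin receptor gene *Insr*, the docking protein genes *Irs1* and *Irs2*, the kinase subunit gene *Pik3r1*, the pseudokinase genes *Trib1* and *Trib3*, and *Ddit4*, *Sesn1*, *Sesn2* and *Eif4ebp1*, which encode proteins that hold back mTORC1 signalling or its output. They were listed by name for what their proteins do, with earlier results of these data known. Livers came from 4 groups of 3 female C57BL/6J mice without any introduced mutation, fed freely, of an age given only as a single range for every animal in the source. Water-PBS mice drank plain water and received an injection of PBS into the abdominal cavity, and this group was the control. Zinc-PBS mice drank 25 mM ZnSO4 for 7 days before the same PBS injection. Water-Dex mice drank plain water and received 200 µg dexamethasone (Dex), a synthetic glucocorticoid that activates the glucocorticoid receptor (GR), dissolved in PBS. Zinc-Dex mice had both treatments, and all livers were collected 2 h after injection, the single time point measured. Food intake and the clock hour of sampling were not given in the sources used here.

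Insulin binds its receptor, a tyrosine kinase encoded by *Insr*, which phosphorylates the docking proteins IRS1 and IRS2. These recruit phosphoinositide 3-kinase (PI3K), whose lipid product activates the kinase AKT, and AKT in turn restrains FOXO transcription factors and, through the TSC complex, releases mTORC1, the kinase complex that drives protein synthesis and growth. In the liver this pathway lowers glucose production and promotes storage of nutrients after a meal, and glucocorticoids are known to oppose it.

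Values are normalized counts, the deposited read counts divided by the DESeq2 size factor of each library. A gene was called when its DESeq2 Benjamini-Hochberg adjusted p, taken over all genes tested, was under 0.05 and its log2 fold change was above 0.8 in size. Total counts per library were between 9091152 and 12303527, and each of the 10 genes had enough counts to be tested in every comparison. The GR targets *Tsc22d3* (588 to 899 in water-PBS and 3346 to 4260 in water-Dex) and *Fkbp5* (536 to 1117 and 7988 to 8059) followed the Dex label. The zinc-responsive metallothionein gene *Mt1* (209 to 435 in water-PBS and 3427 to 6212 in zinc-PBS) followed the zinc label in PBS mice. It was also high with Dex alone, at 7486 to 7595 in water-Dex. *Slc39a4* followed the zinc label under both injections. It had 561 to 747 in water-PBS and 214 to 259 in zinc-PBS, and 550 to 734 in water-Dex and 186 to 245 in zinc-Dex. Of 6 hepatocyte markers, all were detected in every library. Their summed level was between 1.20e+06 and 1.39e+06 in water-PBS and between 1.61e+06 and 1.72e+06 in water-Dex, and it rested mainly on *Alb*. *Tat*, itself a GR target, showed the largest fold change of the 6 (log2 2.72). *Alb* (0.30, DESeq2 adjusted p = 0.00123) and *Apoa1* (0.59, adjusted p = 1.06e-05) were also higher, while *Cps1*, *Cyp2e1* and *Ttr* did not pass 0.05. The 6 leukocyte markers summed to between 3296 and 4677 in water-PBS and between 3517 and 4355 in water-Dex. Their sums rested mainly on *Clec4f* and *Cd5l*. The 4 endothelial markers summed to between 2048 and 2318 in water-PBS and between 2415 and 2573 in water-Dex, with *Lyve1* higher (log2 2.53) and *Kdr* lower (-1.14). The 4 stellate cell and fibroblast markers had overlapping sums, 2812 to 3024 in water-PBS and 2931 to 3039 in water-Dex. Of these *Lrat* was lower (-0.72, DESeq2 adjusted p = 0.00113), while *Col1a2* (0.10), *Dcn* (0.12) and *Col1a1* (-0.05) did not pass 0.05. The 4 adipocyte markers summed to at most 2.17 in any library. The part of cell composition in the results below was not tested, and in bulk liver fewer cells of a type and less RNA per cell cannot be told apart.

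Dex changed most of these genes on either drinking water. In water-Dex against water-PBS, 8 of the 10 genes had an adjusted p under 0.05 (DESeq2), of which 7 were higher and *Irs1* was lower, against 21.6% of all 14221 genes tested, 11.7% higher and 9.91% lower. By the rule with the fold threshold 5 were called, against 9.68% of all genes: *Ddit4*, *Trib1*, *Trib3* and *Sesn1* were upregulated and *Irs1* was downregulated. In zinc-Dex against zinc-PBS, 7 had an adjusted p under 0.05, against 20.1% of the 15657 genes tested (11.0% higher and 9.08% lower), and 6 were called, against 9.68%: *Ddit4*, *Trib3*, *Sesn1*, *Sesn2* and *Eif4ebp1* were upregulated and *Irs1* was again downregulated. The median log2 fold change of the 10 genes was 0.68 on plain water and 0.74 on zinc, and that of all genes tested was -0.01 in both. These 2 comparisons share no mouse.

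**Figure D1:**
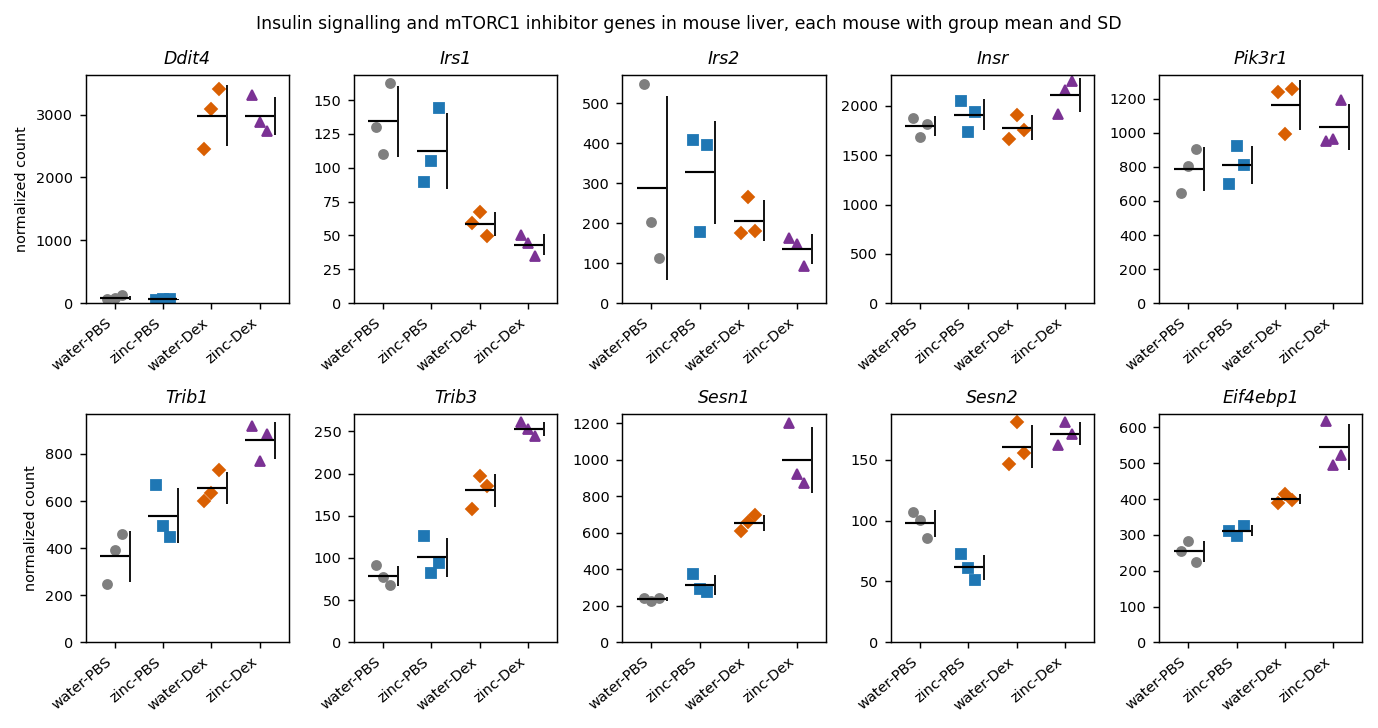
Normalized counts of the 10 genes in each of the 12 livers (vertical axes, linear, starting at 0) by group (horizontal axes). Each point is 1 mouse, horizontal lines are group means and vertical lines show 1 SD on either side. *Ddit4* lies between 45.1 and 124 in the 6 PBS mice and between 2457 and 3402 in the 6 Dex mice, and *Irs1* is the gene whose Dex mice all lie below its PBS mice.

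*Ddit4* (ENSMUSG00000020108, mm10 chr10:59949669-59951834, minus strand) encodes REDD1, a stress-induced protein that acts through the TSC complex to inhibit mTORC1. Its normalized counts were 59.9, 76.4 and 124 in water-PBS and 45.1, 69.1 and 60.7 in zinc-PBS. They were 2457, 3093 and 3402 in water-Dex, while the zinc-Dex mice had 3316, 2886 and 2731. The 6 Dex mice and the 6 PBS mice were far apart, and within each injection the zinc and water mice overlapped. The Dex fold was 34.5 on plain water (log2 5.11 ± 0.20 SE, DESeq2 adjusted p = 2.37e-136) and 51.1 on zinc (log2 5.67 ± 0.21 SE, adjusted p = 1.37e-158). It was the largest fold among the 10 genes in both comparisons. The means were 2984 ± 482 in water-Dex and 2978 ± 303 in zinc-Dex, and 86.8 ± 33.4 in water-PBS and 58.3 ± 12.1 in zinc-PBS (SD, n = 3). The difference between the 2 Dex effects, the interaction, was 0.56 on the log2 scale with a 95% interval from -0.01 to 1.14 (DESeq2 adjusted p = 0.999).

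The sequence just before the *Ddit4* start is shown because this gene had the largest change. It is the gene strand of RefSeq promoter sequence of GRCm38.p6, chr10:59951835-59952020, limited to the 186 bases that precede every annotated exon.
Ddit4: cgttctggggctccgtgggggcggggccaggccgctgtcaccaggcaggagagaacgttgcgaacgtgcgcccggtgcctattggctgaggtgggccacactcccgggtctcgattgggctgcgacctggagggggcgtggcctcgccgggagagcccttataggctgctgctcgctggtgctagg
The 250 bases before each RefSeq start site were searched on both strands for 5 motifs. These were a GR palindrome (GNACA and TGTNC separated by 3 bases of any kind), a FOXO element (GTAAACA), the cAMP response element (TGACGTCA), an ATF4 composite element (TGATGNAA) and the E-box CACGTG. Of 32817 mouse promoters in the table, 0.387%, 3.16%, 1.55%, 3.45% and 6.02% held them in that order. The *Ddit4* window held none of the 5, which says only that those letters do not occur in these bases. The table had 9 start sites for 7 of the 10 genes, and *Insr*, *Trib1* and *Eif4ebp1* had no entry.

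*Insr* (ENSMUSG00000005534, chr8:3122061-3279617, minus strand), the receptor at the head of the pathway, had the smallest Dex effects of the 10 genes. Its normalized counts were 1881, 1686 and 1821 in water-PBS and 2055, 1740 and 1943 in zinc-PBS. They were 1660, 1912 and 1759 in water-Dex, while the zinc-Dex mice had 1916, 2160 and 2257. Values overlapped between PBS and Dex on both waters, and every zinc-Dex mouse lay above every water-Dex mouse. The Dex effect was -0.02 on plain water (log2, 95% interval from -0.21 to 0.18) and 0.14 on zinc (interval from -0.05 to 0.33), with DESeq2 adjusted p of 0.945 and 0.345. The zinc-Dex to water-Dex difference was 0.25 (interval from 0.06 to 0.44, DESeq2 adjusted p = 0.239).

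The 2 docking protein genes behaved differently in how far mice of 1 group varied. *Irs1* (ENSMUSG00000055980, chr1:82233101-82291416, minus strand) had 130, 110 and 163 normalized counts in water-PBS and 89.4, 105 and 144 in zinc-PBS. It had 58.9, 67.0 and 49.5 in water-Dex, while the zinc-Dex mice had 49.96, 44.4 and 34.6. All 6 Dex mice lay below all 6 PBS mice. The Dex fold was 0.436 on plain water (log2 -1.20 ± 0.24 SE, DESeq2 adjusted p = 7.07e-06) and 0.380 on zinc (log2 -1.40 ± 0.25 SE, adjusted p = 3.58e-07). The interaction was -0.20 (95% interval from -0.87 to 0.48).

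*Irs2* (ENSMUSG00000038894, chr8:10984681-11008458, minus strand), which in liver is known to respond quickly to fasting and feeding, had 547, 202 and 112 normalized counts in water-PBS and 407, 178 and 397 in zinc-PBS. It had 176, 265 and 179 in water-Dex, while the zinc-Dex mice had 163, 149 and 92.3. The control mice spanned a 4.88-fold range with a coefficient of variation of 80.0%, the widest of the 10 genes in that group, and the water-Dex mice fell inside that range. All 3 zinc-Dex mice lay below all 3 zinc-PBS mice. The log2 fold change was -0.48 ± 0.57 SE on plain water and -1.28 ± 0.57 SE on zinc, with DESeq2 adjusted p of 0.632 and 0.0975, so *Irs2* was not called in either. Without water-PBS replicate 1, the highest control, the plain water value turned to 0.39 (adjusted p = 0.628). With only the 6 zinc libraries in the fit the zinc value passed the threshold (-1.28, DESeq2 adjusted p = 0.0248).

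Both *Irs* promoters are shown because they were the only ones among the 9 start sites with a motif match. The sequences are the 250 bases before the RefSeq start on the gene strand of GRCm38.p6, chr1:82291440-82291689 for *Irs1* and chr8:11008930-11009179 for *Irs2*, with the E-box in capitals.
Irs1: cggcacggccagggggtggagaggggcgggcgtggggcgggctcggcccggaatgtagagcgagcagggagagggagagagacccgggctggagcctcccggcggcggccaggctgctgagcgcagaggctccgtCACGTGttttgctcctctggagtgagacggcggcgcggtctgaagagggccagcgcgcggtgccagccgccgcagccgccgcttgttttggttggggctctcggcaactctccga
Irs2: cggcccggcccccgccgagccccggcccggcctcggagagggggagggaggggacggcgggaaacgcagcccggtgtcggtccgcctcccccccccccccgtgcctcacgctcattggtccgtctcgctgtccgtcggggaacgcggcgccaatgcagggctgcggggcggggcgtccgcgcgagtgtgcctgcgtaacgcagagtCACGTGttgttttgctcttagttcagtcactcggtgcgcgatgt
The E-box lay 115 to 110 bases before the RefSeq start in *Irs1* and 44 to 39 bases before it in *Irs2*. The annotation that gave the gene positions places the *Irs2* start elsewhere. There the gene ends at 11008458, while the RefSeq window begins at 11008930. The longest runs of bases that the 2 promoters share were 10 bases long, and 1 of these 2 runs held the E-box. GC content was 72.4% and 72.8%, against a median of 52.4% over all promoters in the table. The opposite-strand genes that overlap their exons, *Gm9747* and *9530052E02Rik*, had 0 and at most 1 count in any library.

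*Pik3r1* (ENSMUSG00000041417, chr13:101680563-101768217, minus strand) encodes the p85α regulatory subunit of PI3K. Its normalized counts were 648, 807 and 904 in water-PBS and 701, 921 and 810 in zinc-PBS. They were 1240, 997 and 1257 in water-Dex, while the zinc-Dex mice had 950, 962 and 1193. All Dex mice lay above the PBS mice on the same water. The Dex effect was 0.57 ± 0.15 SE on plain water (log2, DESeq2 adjusted p = 0.0016), which passed the test but not the fold threshold. On zinc it was 0.35 ± 0.15 SE (DESeq2 adjusted p = 0.085), and 0.45 without zinc-PBS replicate 2 (adjusted p = 0.0403).

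The *Trib* genes encode pseudokinases, of which TRIB3 is known to bind AKT and TRIB1 to direct transcription factors of the C/EBP family to degradation in the liver. *Trib1* (ENSMUSG00000032501, chr15:59648350-59657099, plus strand) had 246, 392 and 459 normalized counts in water-PBS and 669, 493 and 449 in zinc-PBS. It had 598, 635 and 732 in water-Dex, while the zinc-Dex mice had 918, 769 and 885. Dex mice were above PBS mice on each water without overlap. The Dex effect was 0.84 ± 0.20 SE on plain water (log2, DESeq2 adjusted p = 0.000238) and 0.68 ± 0.20 SE on zinc (adjusted p = 0.0045). The first lay just past the fold threshold and fell under it when water-PBS replicate 1 (0.62) or water-Dex replicate 3 (0.755) was left out, and the second passed it without zinc-PBS replicate 1 (0.87), all with adjusted p under 0.05.

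*Trib3* (ENSMUSG00000032715, chr2:152337422-152344032, minus strand) had 91.4, 77.4 and 68.1 normalized counts in water-PBS and 126, 82.2 and 94.2 in zinc-PBS. It had 158, 197 and 185 in water-Dex, while the zinc-Dex mice had 261, 253 and 244. The zinc-Dex group stood above the water-Dex group, which stood above all PBS mice. The Dex fold was 2.28 on plain water (log2 1.19 ± 0.18 SE, DESeq2 adjusted p = 1.55e-09) and 2.51 on zinc (log2 1.33 ± 0.17 SE, adjusted p = 3.19e-13). The zinc-Dex to water-Dex difference was 0.49 ± 0.16 SE (DESeq2 adjusted p = 0.129).

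Sestrins pass information on leucine and on cell stress to mTORC1, which they inhibit by way of the GATOR complexes. Another sestrin gene, *Sesn3*, is not among the 10 and was not called with Dex on either water. Its normalized counts were lower with Dex on plain water, 693 to 763 in water-PBS and 523 to 601 in water-Dex. On zinc its groups overlapped, with 625 to 756 in zinc-PBS and 554 to 630 in zinc-Dex. *Sesn1* (ENSMUSG00000038332, chr10:41809935-41908424, plus strand) had 244, 225 and 245 normalized counts in water-PBS and 375, 295 and 275 in zinc-PBS. It had 611, 658 and 698 in water-Dex, while the zinc-Dex mice had 1203, 920 and 874. The 4 groups did not overlap and stood in the order water-PBS, zinc-PBS, water-Dex, zinc-Dex. The Dex fold was 2.76 on plain water (log2 1.46 ± 0.15 SE, DESeq2 adjusted p = 1.31e-20) and 3.17 on zinc (log2 1.66 ± 0.15 SE, adjusted p = 3.39e-28).

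*Sesn2* (ENSMUSG00000028893, chr4:132492032-132510501, minus strand) had 107, 100 and 85.7 normalized counts in water-PBS and 72.2, 61.2 and 51.6 in zinc-PBS. It had 146, 181 and 155 in water-Dex, while the zinc-Dex mice had 162, 181 and 171. Zinc-PBS mice were the lowest, and the 2 Dex groups overlapped. The Dex effect was 0.72 ± 0.17 SE on plain water (log2, DESeq2 adjusted p = 0.000211) and 1.47 ± 0.18 SE on zinc (adjusted p = 2.1e-15). The interaction of 0.76 ± 0.24 SE was the one among the 10 genes with an unadjusted p under 0.05, and it did not pass after adjustment over all genes (DESeq2 adjusted p = 0.999).

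*Eif4ebp1* (ENSMUSG00000031490, chr8:27260329-27276674, plus strand) encodes 4E-BP1, the translation repressor that mTORC1 inactivates by phosphorylation. Its normalized counts were 254, 283 and 225 in water-PBS and 311, 295 and 326 in zinc-PBS. They were 388, 415 and 397 in water-Dex, while the zinc-Dex mice had 618, 494 and 522. As with *Sesn1*, no group overlapped another and the order was the same. The Dex effect was 0.65 ± 0.12 SE on plain water (log2, DESeq2 adjusted p = 2.28e-06), and 0.81 ± 0.12 SE on zinc (adjusted p = 2.48e-10). The zinc value lay just past the fold threshold and was 0.77 without zinc-PBS replicate 2 and 0.71 without zinc-Dex replicate 1. Values here are mRNA only, and the phosphorylation of 4E-BP1 was not measured.

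**Figure D2:**
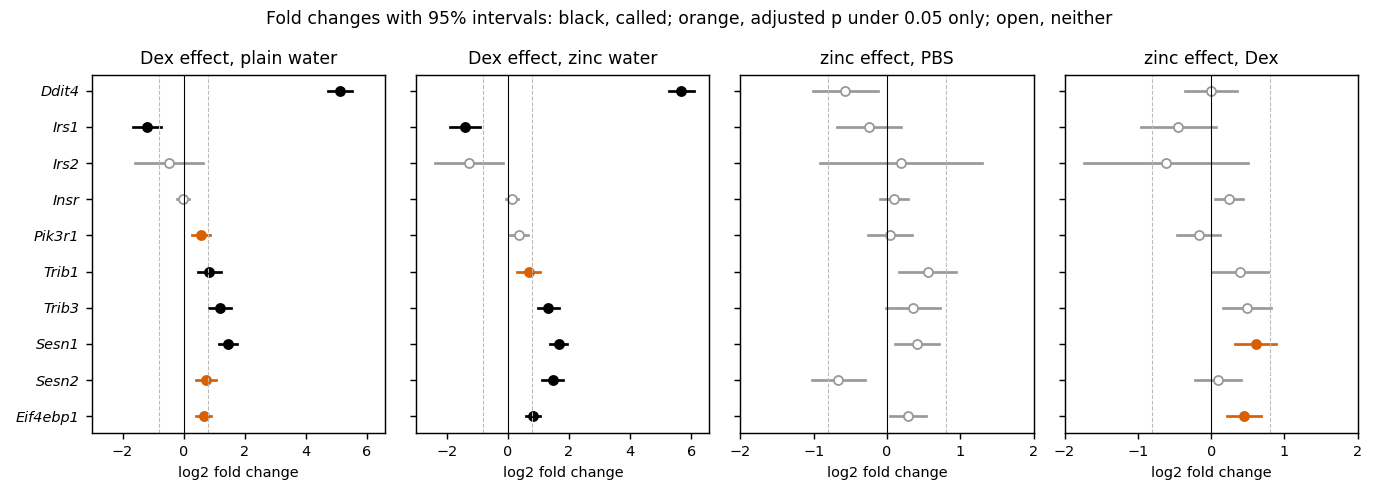
Log2 fold changes (horizontal axes) of the 10 genes (rows) in the 4 comparisons of groups, as points with 95% intervals. Black marks called genes, orange an adjusted p under 0.05 without the fold threshold and open grey circles neither, dashed lines stand at -0.8 and 0.8, and the 2 right panels use a narrower axis. Dex effects reach 5.67 for *Ddit4*, and no zinc effect passes 0.8 in size.

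Compared per length, as normalized counts per kb of annotated exons, *Insr* led in the control livers with 131 ± 7.2 (SD, n = 3), and *Eif4ebp1* followed with 116 ± 13. These neighbours overlapped, and so did the run of *Sesn1* (59.7), *Trib1* (58.5), *Ddit4* (49.5), *Irs2* (45.4) and *Trib3* (37.2), each with the next. *Sesn2* (28.1) and *Irs1* (14.7) came last without overlapping each other, but the range of *Irs2*, 17.7 to 86.5, contained that of *Sesn2* and reached the top of that of *Irs1* (17.8). In water-Dex *Ddit4* moved from the 6th place to the first with 1700 ± 275 per kb, and *Eif4ebp1* (182 ± 6.3) and *Sesn1* (165 ± 11) now lay above *Insr* (129 ± 9.2) without overlap. *Irs1* remained last at 6.39 ± 0.96, below *Irs2* at 32.7 ± 8.0. In zinc-Dex *Ddit4* again led at 1697 ± 173, and *Sesn1* (251 ± 45) and *Eif4ebp1* (248 ± 30) overlapped. With the longest transcript as the length, the order of some neighbours changed, for example *Insr* above *Sesn1* in water-Dex, while *Ddit4* stayed first and *Irs1* last in both Dex groups.

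**Figure D3:**
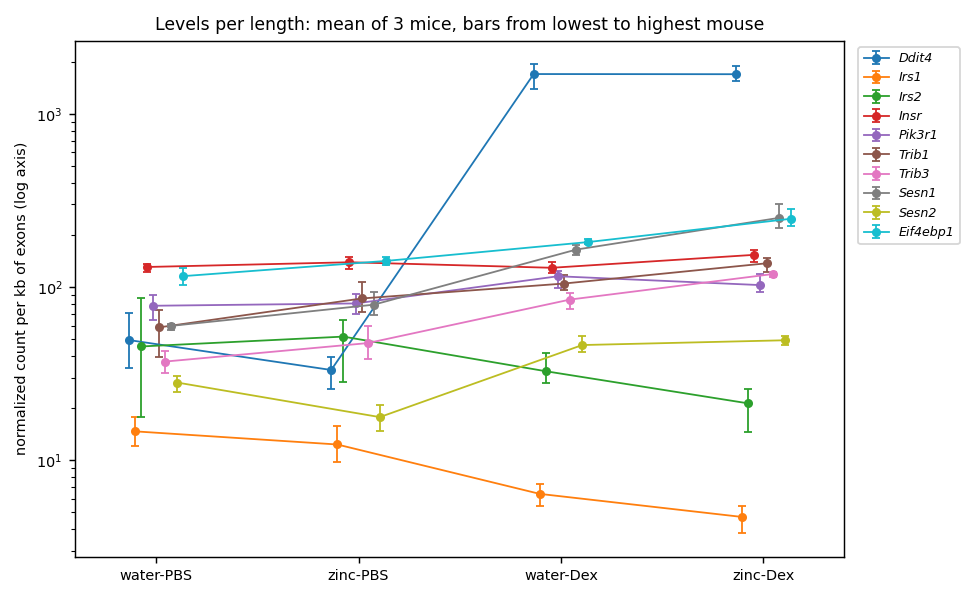
Normalized count per kb of exons (vertical axis, log scale) in the 4 groups (horizontal axis), with each point the mean of 3 mice and bars from the lowest to the highest mouse. *Ddit4* goes from 49.5 in water-PBS to 1700 in water-Dex, and *Irs1* is lowest in every group, at 14.7 in water-PBS and 4.70 in zinc-Dex.

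No gene of the 10 passed the test for zinc alone. In zinc-PBS against water-PBS, 0 of the 10 genes had an adjusted p under 0.05 by DESeq2 or edgeR, against 0.341% of all 12307 genes tested by DESeq2, and 0 were called, against 0.138%. At an unadjusted p under 0.05 there were 5 by DESeq2 and 6 by edgeR. The share of all genes at this unadjusted level was not taken, so these counts have no background beside them. The groups did not overlap for 3 genes, *Sesn1* and *Eif4ebp1* higher and *Sesn2* lower on zinc, against 11.9% of all genes. The log2 differences were 0.41 ± 0.15 SE for *Sesn1*, 0.29 ± 0.12 for *Eif4ebp1* and -0.66 ± 0.18 for *Sesn2*, with DESeq2 adjusted p of 0.472, 0.664 and 0.0757. The *Sesn2* value passed after a filter on low counts (adjusted p = 0.0492) or without water-PBS replicate 3 (-0.75, adjusted p = 0.0364), and without that same control *Trib1* passed as well (0.75, adjusted p = 0.0305, against 0.55 and 0.389 with it). *Ddit4* was lower on zinc by the fitted value (-0.57, interval from -1.01 to -0.12, DESeq2 adjusted p = 0.532), with overlapping groups. This comparison uses the same water-PBS mice as the Dex comparison on plain water.

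Zinc differences among Dex-injected mice stayed under the fold threshold for all 10 genes. Their median size was 0.42 on the log2 scale, against 0.13 for all genes tested. For zinc in PBS mice it was 0.32 against 0.105. In zinc-Dex against water-Dex, *Sesn1* (log2 0.61 ± 0.14 SE, DESeq2 adjusted p = 0.00458) and *Eif4ebp1* (0.45 ± 0.12 SE, adjusted p = 0.0179) were higher, 2 of the 10 genes against 1.35% of all 12786 genes tested. Neither reached the fold threshold, so 0 were called, against 0.469%, and edgeR called 0 too. Groups did not overlap for 6 of the 10 genes, against 20.0% of all genes: *Insr*, *Trib1*, *Trib3*, *Sesn1* and *Eif4ebp1* had every zinc-Dex mouse above every water-Dex mouse, and *Irs2* every one below. Both lost significance in some alternatives. By edgeR the adjusted p was 0.0584 for *Sesn1* and 0.069 for *Eif4ebp1*, and without zinc-Dex replicate 1, the highest mouse for both genes, the values were 0.45 (adjusted p = 0.0848) and 0.35 (adjusted p = 0.262). Without water-Dex replicate 1 the adjusted p was 0.0658 and 0.14, and *Eif4ebp1* also missed the threshold without water-Dex replicate 3 (0.142) and with a replicate block (0.44, adjusted p = 0.0817). At an unadjusted p under 0.05 there were 5 genes by DESeq2 and 4 by edgeR, again without a share of all genes to set beside them.

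The Dex effect was not shown to differ between plain and zinc water for any of the 10 genes. For the interaction 0 had an adjusted p under 0.05, against 0.0229% of the 26185 genes tested, and 0 were called, against 0.0191%. At an unadjusted p under 0.05 there was 1 gene by DESeq2, *Sesn2*, and 1 by edgeR, and the share of all genes was not taken. Across the Dex comparisons the groups did not overlap for 8 genes on plain water, against 39.0% of all genes, and for 9 on zinc, against 38.1%.

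The rest of the pathway was described with a list of 80 genes. Of 78 tested on plain water, 11 were called with Dex, 6 higher and 5 lower, against 9.68% of all genes, and 26 had a DESeq2 adjusted p under 0.05, 13 in each direction, against 21.6%. Of 80 tested on zinc, 10 were called, 5 in each direction, against 9.68% of all genes, and 17 had an adjusted p under 0.05, against 20.1%, so the list was close to the background on zinc. The medians of the list were -0.05 and -0.03 on the log2 scale, near the -0.01 of all genes, and no list gene was called or had an adjusted p under 0.05 for zinc in either injection or for the interaction (DESeq2). Called by edgeR were 0 as well. At an unadjusted p under 0.05 there were 8 and 4 genes by DESeq2 for zinc in PBS and Dex mice. The share of all genes at this level was not taken, so these counts also have no background beside them. In total 13 list genes were called in 1 or both Dex comparisons, and 8 of them in both.

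Among the 16 targets downstream of AKT and mTORC1, 4 were called on plain water and all 4 also on zinc, where 6 were called in all, against 9.68% of all genes in each comparison. *Lpin1*, a phosphatidate phosphatase and nuclear cofactor that mTORC1 restrains, had 741 to 2825 normalized counts in the 3 water-PBS mice and 17760 to 19280 in the 3 water-Dex mice, and 1133 to 4125 and 19640 to 20780 on zinc. Its Dex effects were 3.23 ± 0.53 SE and 3.14 ± 0.53 SE (log2). *Eif4ebp3*, a relative of *Eif4ebp1*, rose by 2.09 ± 0.34 SE and 1.74 ± 0.31 SE from low levels, 12.1 to 18.2 and 14.0 to 33.4 normalized counts in PBS mice. Of the FOXO factors, which AKT keeps out of the nucleus, *Foxo1* rose by 1.30 ± 0.093 SE and 1.38 ± 0.091 SE. *Foxo3* rose by 1.35 ± 0.14 SE and 1.22 ± 0.14 SE. *Foxo4* was not called on either water. Its means were 324 in water-PBS and 363 in water-Dex, and 344 in zinc-PBS and 337 in zinc-Dex. In the same class *Tfeb*, a lysosome regulator, was called lower on zinc (-0.87, DESeq2 adjusted p = 0.00412) and not on plain water (-0.47, adjusted p = 0.173). *Pdcd4*, a translation inhibitor, had -0.82 on zinc and -0.72 on plain water, on either side of the fold threshold, and its zinc call was lost without zinc-PBS replicate 2 (-0.74) or zinc-Dex replicate 3 (-0.73).

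The other called list genes acted near the receptor, at PI3K and at the inputs of mTORC1. *Socs3*, a cytokine-induced inhibitor of receptor signalling, had 110, 128 and 75.8 normalized counts in water-PBS and 12.2, 22.3 and 11.9 in water-Dex. On zinc it had 701, 83.9 and 146 in PBS mice and 14.1, 22.2 and 14.4 in Dex mice. The effects were -2.76 ± 0.74 SE and -4.20 ± 0.74 SE, and the second was -2.77 without zinc-PBS replicate 1, the mouse with 701. The adaptor gene *Sh2b2* was called lower on both waters (-1.10 and -1.71), the plain water call being lost in 8 of 13 alternatives. Its raw counts were low, 16 to 32 in water-PBS and 9 to 14 in water-Dex. *Pik3cd*, a catalytic PI3K subunit abundant in leukocytes, was called lower on both waters (-1.62 ± 0.27 SE and -1.12 ± 0.27 SE). All 6 leukocyte markers also had lower fitted values in water-Dex than in water-PBS, from -0.02 for *Clec4f* to -2.08 for *Cd79a*, with 0 at a DESeq2 adjusted p under 0.05. *Cd79a* and *Cd3e* had few reads, with mean raw counts of 5.67 and 6 in water-PBS and 1.33 and 2.33 in water-Dex. The better counted *Ptprc*, *Cd5l* and *Adgre1* had -0.28, -0.25 and -0.09. The part of leukocytes in the *Pik3cd* result was not tested. *Trib2*, a relative of *Trib1* and *Trib3*, was higher by 1.27 ± 0.23 SE and 1.23 ± 0.23 SE.

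Called on plain water and not on zinc were *Ddit4l*, a relative of *Ddit4* (-1.55, and -1.35 on zinc with DESeq2 adjusted p = 0.0562), and the arginine sensor *Castor1* (1.24, and 1.02 with adjusted p = 0.0539) with its relative *Castor2* (-0.84, and -0.42 with adjusted p = 0.42). Their plain water calls were lost in 5, 3 and 9 of 13 alternatives. On zinc *Ddit4l* and *Castor1* were each called in 3 of 13 alternatives, edgeR among them (adjusted p = 0.0383 and 0.0202). Levels were low: *Castor1* had 10 to 15 raw counts in water-PBS and 27 to 35 in water-Dex. *Ddit4l* had 11 to 31 and 5 to 9. The fitted Dex effects of *Ddit4* and *Ddit4l* had opposite signs. Among the other members of the TSC and mTOR complexes 0 of 11 were called in either comparison, against 9.68% of all genes. On plain water 3 of these 11 had a DESeq2 adjusted p under 0.05, against 21.6% of all genes. All 3 were lower with Dex: the TSC subunit genes *Tsc1* (-0.32, adjusted p = 0.0406) and *Tbc1d7* (-0.54, adjusted p = 0.0256) and the mTOR partner gene *Mlst8* (-0.61, adjusted p = 0.0399), which are named after their values were seen. On zinc 0 of the 12 genes of this class, *Ddit4l* included, had an adjusted p under 0.05, against 20.1% of all genes.

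**Figure D4:**
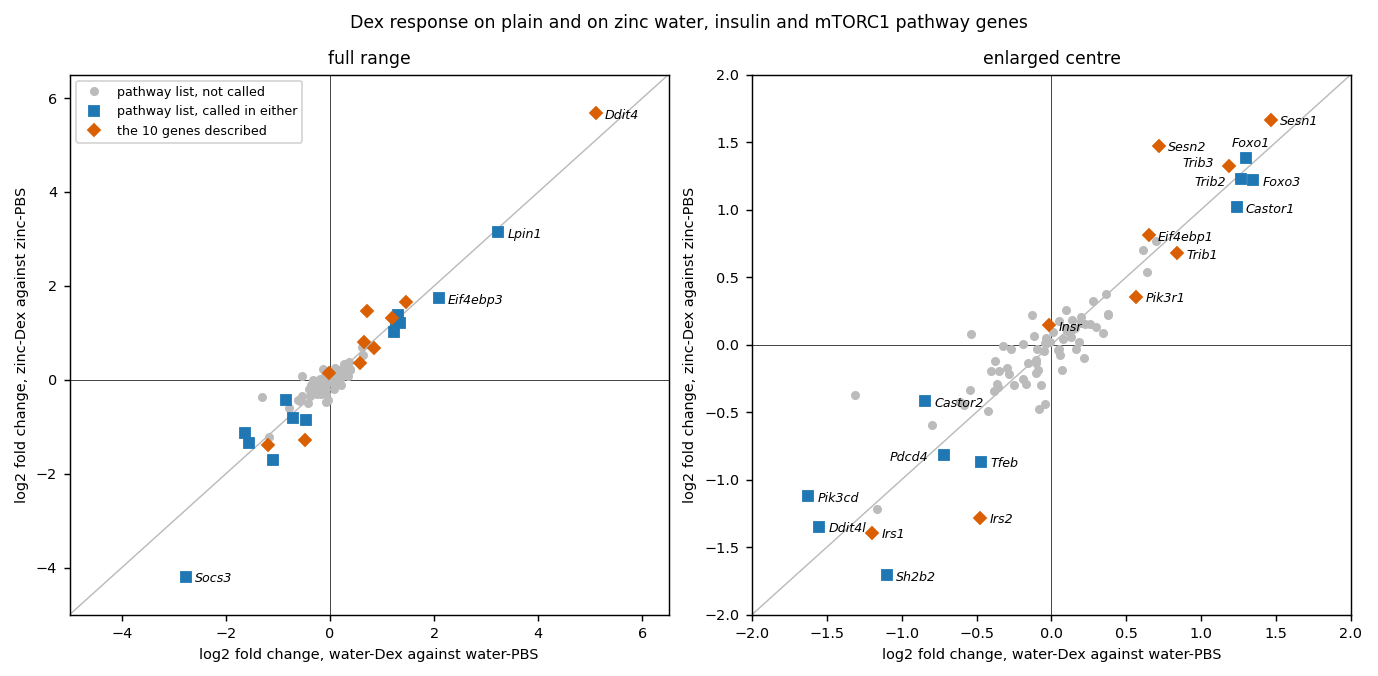
Dex effect on zinc water (vertical axis, log2 fold change) against that on plain water (horizontal axis). Points are the 80 list genes, also those not tested on plain water, and the 10 genes described. The full range is on the left and its centre is enlarged on the right. Blue squares are list genes called in either comparison, grey circles other list genes and orange diamonds the 10 genes, the diagonal marks equal effects, and the axes share no mouse. *Ddit4* at 5.11 and 5.67 and *Socs3* at -2.76 and -4.20 are the ends of the range, and *Sesn2* at 0.72 and 1.47 lies above the diagonal.

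Genes with the most similar pattern were sought by the root mean square difference of centred log2(normalized count + 1) over the 12 livers, among 9574 genes with a mean of at least 50. The nearest to *Ddit4* was *Cyp2b10*, at 0.50, a larger distance than for the other called genes. *Sesn1* was nearest to *Mknk2* (0.12), *Trib3* to *Pnpla2* (0.13), *Eif4ebp1* to *Egln2* (0.13), *Sesn2* to *Ppp1r10* (0.17), *Trib1* to *Abhd15* (0.19) and *Irs1* to *Rtn4rl1* (0.21). Of the 10 genes themselves, *Sesn1* and *Trib3* were the closest pair, at 0.21.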

How the data were processed

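The authors mapped single-end reads of stranded TruSeq libraries (NextSeq 500) to mouse mm10 with HISAT2 2.0.4 and counted them per Ensembl gene with featureCounts, without multimapping reads. The deposited table holds these raw counts for 12 livers. The annotation release and strand setting are not given in the sources used here. Symbols, positions and exon lengths came from GENCODE M21 (54809 of 54838 rows matched), promoters from RefSeq GRCm38.p6. All libraries were fitted together with DESeq2 1.42.0 (R 4.3.3, 1 coefficient per group, Wald test, unshrunken fold changes, 95% normal intervals), following the study's use of DESeq2 at an FDR of 5%. Alternatives were edgeR 4.0.16 (quasi-likelihood), TMM factors, a minimum of 10 counts in 3 libraries (13255 genes), a replicate block, no fold threshold, no independent or Cook filter, only the groups compared, leaving out each library, and the longest transcript as length. Scripts were tested on simulated data.

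The 10 genes and all lists were chosen with earlier results of these data known. Named were the 10 genes, list genes called in any comparison of 2 groups, and the nearest patterns. The list genes *Tsc1*, *Tbc1d7*, *Mlst8*, *Foxo4* and *Sesn3* were not called and were named after their values were seen. Chi-square per degree of freedom between replicates, over genes with at least 20 counts in the pair, was 6.20 to 20.7, so no library was a copy. Each mouse gave 1 library, and with 3 against 3 an exact permutation test cannot go below 0.1. Adjusted p-values are from the model.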

Additional observations from a re-analysis of the deposited data

How the results depend on the processing

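Without the fold threshold the calls among the 10 genes rose to 8 for Dex on plain water and 2 for zinc-Dex against water-Dex, and those of the pathway list to 26 on plain water and 17 on zinc. Of 700 alternative values of the 10 genes' fold changes, 679 kept their sign and their side of the call, 4 lost a call, 2 gained one and 15 changed sign, all 15 for values never called. Leaving out 1 library, *Ddit4* in zinc-Dex against water-Dex ranged from -0.126 to 0.101 (0.0268 with a replicate block), *Irs2* in zinc-PBS against water-PBS from -0.194 to 1.06 and in water-Dex against water-PBS from -0.858 to 0.392, *Insr* in the latter from -0.07 to 0.0328, *Pik3r1* in zinc-PBS against water-PBS from -0.0766 to 0.156, and the interaction of *Irs1* from -0.356 to 0.0161 and of *Trib1* from -0.36 to 0.0513. The labels do not say whether replicate numbers pair the mice. Deviations of same-numbered libraries from their group means correlated at -0.204 to 0.191 over 18 pairs. Of 12 libraries, 3 correlated best with their own number. With 3 mice a group these correlations cannot show whether the mice were paired. Under the replicate block 5 and 6 of the 10 genes were called for Dex, as without it, and *Eif4ebp1* no longer passed in zinc-Dex against water-Dex (0.444, adjusted p = 0.0817). All-gene calls moved by over 1.5 times with edgeR for zinc (9 against 17 in PBS and 21 against 60 in Dex mice) and for the interaction (3 against 5, and 8 with the block), without the threshold (42, 3067, 3145 and 173 for the 4 comparisons of groups), and leaving out 1 library for zinc (11 to 38 in PBS, 26 to 101 in Dex mice) and the interaction (4 to 23). The cause was not tested. Of 40 levels per kb, 15 moved by over 1 SD with the longest transcript. With 3 mice a group, small differences could have been missed, above all for genes as variable as *Irs2*. The smallest detectable difference was not computed.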
